A study of Mus musculus with 13 samples.

Results

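The major urinary proteins were examined in liver tumours that arose in mir-122 knockout mice, set against livers of wild-type mice. mir-122 is the main microRNA of hepatocytes. Every probe set whose gene annotation names a numbered Mup gene was taken, which gave 4 of the 45037 probe sets tested. A probe set is the group of short probes on an Affymetrix array that reports on 1 transcript or a few related ones. Of these 4, 2 name Mup3 (1427631_x_at and 1427249_x_at), 1 names Mup10 (1430893_at) and 1 names Mup5 (1426166_at). None of them names several Mup genes, so 3 genes stand for a family of 22 numbered protein-coding Mup genes in the RefSeq gene table.

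The tumours were 3 from mir-122 knockout mice at 11 months and 5 at 14 months. The controls were 2 wild-type livers at 11 months and 3 at 14 months, and all mice had the mixed strain background B6/129. RNA came from frozen liver tissue, with 1 sample on each of 13 arrays. No tumour-free liver of a knockout mouse was among them, so the effect of losing mir-122 and that of the tumour cannot be told apart. The labels do not say that the tumours came from separate mice, so the p-values measure the spread between these samples, which may be partly technical. The labels do not give the sex of the mice.

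Major urinary proteins are small secreted proteins of the lipocalin family, which fold into a barrel with a pocket for oily molecules. Hepatocytes make them in large amounts, the kidney passes them into the urine, and there they release volatile pheromones slowly and serve in scent marking. Their genes form a tandem array on mouse chromosome 4 in which neighbouring copies are nearly alike in sequence. In mouse liver males make more of them than females, under the pulsatile growth hormone of males that acts through STAT5B, with further input from thyroid hormone, glucocorticoids and androgens. Circulating Mup1 is also known to act on glucose and lipid metabolism in mice.

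The likeness of the copies limits what a probe set can say about 1 gene. In Affymetrix naming the ending _x_at marks a probe set in which some probes may bind other transcripts, and both Mup3 probe sets carry it. The probe sets for Mup10 and Mup5 end in _at, which marks a design aimed at 1 transcript. Names have also moved within the family: the RefSeq table lists Mup8 as an older name of Mup10, and Mup18 as an older name of Mup5. The 4 probe sets are therefore reported under their annotated names as readouts of the family, and which copies contribute to each was not tested.

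The same likeness can be read in the sequences upstream of the genes. RefSeq windows of build GRCm38.p6 were given for 14 numbered Mup genes, among them Mup10 and Mup3. Where the 300-base windows align with each other, the Mup10 promoter was 74.1% to 95.2% identical to the others (median 94.0%), and the highest of these, with Mup7, rests on 166 aligned bases. The Mup3 promoter was 76.5% to 93.3% identical to the others (median 78.0%), and it matched that of Mup10 at 215 of 281 aligned bases (76.5%). The 250 bases before the start that the promoter table gives for each gene are shown because they let the copies be compared directly. The 2 starts differ in kind: the Mup3 window ends where the annotated gene begins, while 121 bases of the Mup10 window lie inside the longest annotated extent of that gene. Both lie on the minus strand, Mup10 at chr4:60582156-60582405 and Mup3 at chr4:62087318-62087567. Capitals mark matches on either strand to TATATAA, the core of the box that positions the start of transcription, and to ATCAAT, the core bound by ONECUT factors.
Mup10: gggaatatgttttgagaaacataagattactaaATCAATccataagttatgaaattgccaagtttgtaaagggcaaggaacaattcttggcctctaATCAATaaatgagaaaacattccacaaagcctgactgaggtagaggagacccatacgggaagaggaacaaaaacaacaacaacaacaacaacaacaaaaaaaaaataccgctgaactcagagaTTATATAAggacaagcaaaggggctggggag
Mup3: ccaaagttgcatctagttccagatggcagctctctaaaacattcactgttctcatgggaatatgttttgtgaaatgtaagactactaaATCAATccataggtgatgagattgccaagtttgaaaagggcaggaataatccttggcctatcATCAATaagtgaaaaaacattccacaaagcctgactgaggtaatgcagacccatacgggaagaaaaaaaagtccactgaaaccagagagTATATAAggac

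Counted back from each table start, and so not directly comparable between the 2 genes, TATATAA lay at bases 30 to 24 in Mup10, where it overlaps a reverse-strand match at 31 to 25, and at bases 11 to 5 in Mup3. ATCAAT lay at 154 to 149 and 217 to 212 in Mup10, and at 100 to 95 and 162 to 157 in Mup3. Within the 250 bases before the start, ATCAAT was found in 14 of 14 Mup promoters and in 6.7% of all 32851 promoters in the table. TATATAA was found in 11 of 14 and in 3.0% of all. TTCNNNGAA, the core bound by STAT factors, was in 0 of 14 Mup windows and in 7.0% of all. These are letter matches within a short window and say nothing on binding. The 14 Mup windows are related copies, so matches or gaps that they share are not 14 separate observations.

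All 4 Mup probe sets were lower in the tumours with the ages combined, and in each of them every tumour lay below every control. The levels are RMA values on a log2 scale, where 1 unit is a doubling. The log2 fold changes of tumour over control, with both ages weighted equally, were -5.83 for Mup10, -3.62 and -1.08 for the brighter and the dimmer Mup3 probe set, and -2.21 for Mup5. All 4 passed an adjusted p under 0.05 in limma, against 8.04% of all probe sets called lower and 7.41% called higher. The median log2 fold change was -2.91 over the 4 and -0.07 over all probe sets. Tumours lay wholly below controls in 1859 of all probe sets (4.13%). In bulk tissue, fewer cells that make a transcript and less of it per cell cannot be told apart.

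**Figure D1:**
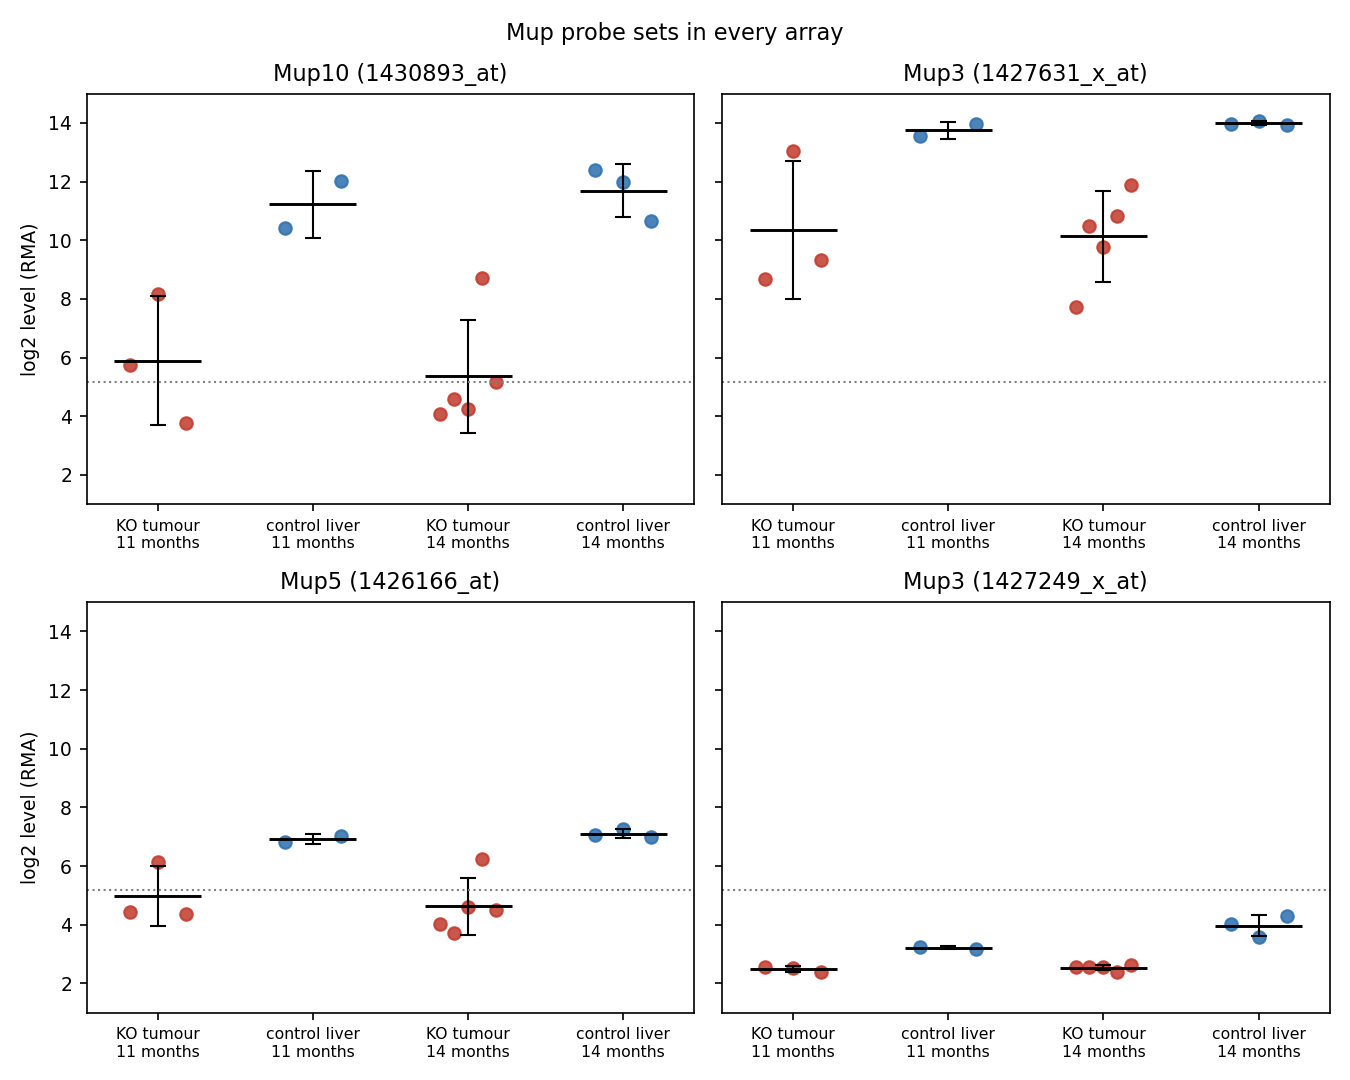
Log2 level (RMA) of the 4 Mup probe sets in every array, with KO tumours in red and control livers in blue at 11 and 14 months; points are arrays, horizontal bars the group mean with 1 SD, and the dotted line the median of the array medians. Every tumour lies below every control in each panel, the tumours spread over several log2 units for Mup10 and 1427631_x_at, and all arrays of 1427249_x_at lie below the dotted line.

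Mup10 had the largest fall of the 4 probe sets. Its log2 levels in tumours were 5.73, 8.16 and 3.78 at 11 months, and 4.09, 4.60, 4.23, 8.72 and 5.17 at 14 months. In controls they were 10.41 and 12.03 at 11 months, and 12.40, 12.00 and 10.66 at 14 months. Of the 8 tumours, 4 lay below the lowest array median of 5.127, and the highest tumour still lay 1.69 below the lowest control. Over all ages the level was 5.56 ± 1.89 in tumours (SD, n = 8) and 11.50 ± 0.90 in controls (n = 5). The log2 fold change of -5.83 (95% confidence interval -7.81 to -3.85, adjusted p = 0.00229 in limma) is 56.8-fold lower, with an interval of 14.4-fold to 224-fold. Only 4 probe sets on the array had a larger fall. They were those of Hsd3b5 and Sult2a8 and 2 of Slco1a1, which are all genes with male-biased expression in mouse liver.

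The brighter Mup3 probe set, 1427631_x_at, was among the brightest on the control arrays. Its log2 levels in tumours were 8.67, 13.05 and 9.33 at 11 months, and 7.72, 10.50, 9.76, 10.81 and 11.87 at 14 months. In controls they were 13.54 and 13.95 at 11 months, and 13.97, 14.06 and 13.92 at 14 months. The tumours spanned 7.72 to 13.05 with a mean of 10.21 ± 1.72 (SD, n = 8), while the controls held to 13.89 ± 0.20 (n = 5). The highest tumour lay 0.49 below the lowest control, a narrower gap than for Mup10. The array maxima were 14.58 to 14.84, and whether the control levels were compressed near that ceiling was not tested.

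The log2 fold change of 1427631_x_at was -3.62 (95% confidence interval -5.35 to -1.90), or 12.3-fold lower with an interval of 3.72-fold to 40.8-fold. Its adjusted p was 0.0117, and 29 probe sets had a larger fall. This call was lost in the settings below, which have fewer arrays, while their log2 fold changes were -3.52, -3.74 and -3.30. The first 2 of them left 1 control at 11 months, and the last left out tumours as well as a control. Without control_liver_11M replicate 2 the adjusted p was 0.0544, without the nearly identical controls described below it was 0.0695, and among numbered arrays alone, that is those with a number in their title, it was 0.051.

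Mup5 was measured at a moderate level. Its log2 levels in tumours were 4.43, 6.15 and 4.37 at 11 months, and 4.04, 3.73, 4.62, 6.24 and 4.49 at 14 months. In controls they were 6.81 and 7.04 at 11 months, and 7.05, 7.27 and 6.99 at 14 months. The controls were tightly grouped (7.03 ± 0.16, SD, n = 5), 6 of the 8 tumours lay below the lowest array median, and the tumours averaged 4.76 ± 0.93 (n = 8). The highest tumour lay 0.57 below the lowest control. The log2 fold change was -2.21 (95% confidence interval -3.13 to -1.28, adjusted p = 0.00628), or 4.62-fold lower with an interval of 2.43-fold to 8.76-fold. There were 161 probe sets with a larger fall.

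The dimmer Mup3 probe set, 1427249_x_at, lay below the median of every array. Its log2 levels in tumours were 2.57, 2.52 and 2.39 at 11 months, and 2.55, 2.56, 2.55, 2.38 and 2.62 at 14 months. In controls they were 3.25 and 3.18 at 11 months, and 4.04, 3.59 and 4.29 at 14 months. The tumours sat close together (2.52 ± 0.09, SD, n = 8) near the array minima of 1.94 to 2.15, and the controls lay at 3.67 ± 0.49 (n = 5). The log2 fold change was -1.08 (95% confidence interval -1.32 to -0.84, adjusted p = 0.000218). That is 2.11-fold lower, with an interval of 1.79-fold to 2.49-fold. This was the smallest adjusted p and the smallest fold of the 4. The p rests on a spread shared by all groups, to which the tight tumours near the floor contribute. Near the bottom of the scale a fold change is bounded by the floor of the measurement, so the folds of the 2 Mup3 probe sets are not estimates of 1 quantity.

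**Figure D2:**
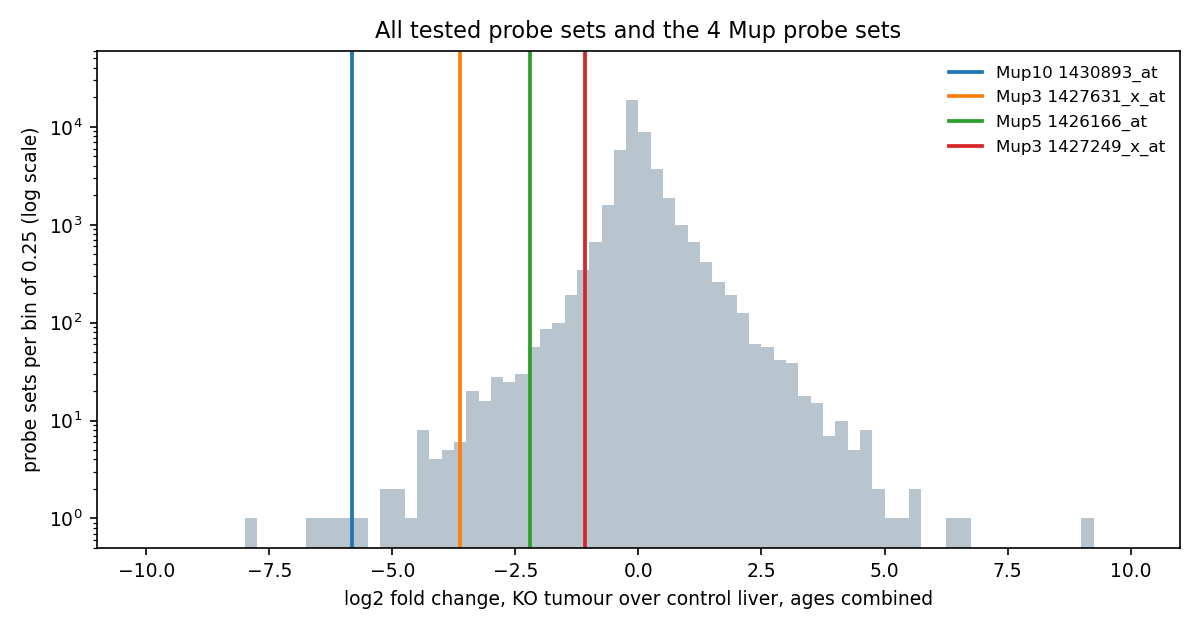
Number of probe sets per bin of 0.25 of log2 fold change, KO tumour over control liver with the ages combined, on a log axis, with coloured lines at the 4 Mup probe sets. Mup10 at -5.83 lies in the far left tail, 1427631_x_at at -3.62 and Mup5 at -2.21 lie in the left tail, and 1427249_x_at at -1.08 lies nearest to the bulk of the array.

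At 14 months all 4 probe sets passed the threshold. The log2 fold changes were -6.32 for Mup10 (95% confidence interval -8.80 to -3.85, adjusted p = 0.00749), -3.85 for 1427631_x_at (-6.01 to -1.69, adjusted p = 0.0315), -2.48 for Mup5 (-3.63 to -1.32, adjusted p = 0.0154) and -1.44 for 1427249_x_at (-1.74 to -1.14, adjusted p = 0.000347). Of all probe sets, 5.17% were called lower and 5.59% higher at that age. The count of 4 fell to 2 without control_liver_14M replicate 1 and without control_liver_14M replicate 2, where Mup5 had an adjusted p of 0.0602 and 0.0656 and 1427631_x_at one of 0.102 and 0.0994. It was 3 without control_liver_14M replicate 3, KO_tumor_14M replicate 2 or KO_tumor_14M replicate 3, where 1427631_x_at had 0.082, 0.0544 and 0.0578.

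At 11 months, with 3 tumours and 2 controls, none of the 4 passed the threshold in limma, and all 4 had an unadjusted p under 0.05. The background was 0.36% of probe sets called lower and 0.671% called higher. The log2 fold changes were -5.33 for Mup10 (95% confidence interval -8.43 to -2.23, adjusted p = 0.105), -3.39 for 1427631_x_at (-6.09 to -0.70, adjusted p = 0.23), -1.94 for Mup5 (-3.38 to -0.49, adjusted p = 0.2) and -0.72 for 1427249_x_at (-1.09 to -0.35, adjusted p = 0.0748). Without KO_tumor_11M replicate 2, 1427631_x_at (adjusted p = 0.0335) and Mup10 (adjusted p = 0.0382) passed. Mup10 also passed without KO_tumor_14M replicate 4 (adjusted p = 0.0387), and 1427249_x_at without control_liver_14M replicate 2 (adjusted p = 0.0355). Neither of these arrays is from 11 months, and the fold changes stayed at -5.33 and -0.72. Only the spread, which the fit shares among all groups, and the adjustment had changed.

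The 2 ages were compared directly by the difference of their fold changes. None of the 4 probe sets passed the threshold in limma, 1 had an unadjusted p under 0.05, and 0% of all probe sets were called. That difference, 14 minus 11 months, was -0.99 for Mup10 (95% confidence interval -4.96 to 2.97), -0.46 for 1427631_x_at (-3.91 to 3.0) and -0.54 for Mup5 (-2.39 to 1.31), and differences of several log2 units lie within these intervals. For 1427249_x_at it was -0.72 (-1.20 to -0.24, unadjusted p = 0.00658). The controls of that probe set were 0.76 higher at 14 than at 11 months (0.39 to 1.13, unadjusted p = 0.000838, not past the threshold after adjustment). The spread behind these 2 p-values is shared with the tumours, which lay near the floor. Their SD was 0.09 at both ages, against 0.05 at 11 and 0.35 at 14 months in controls.

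Age alone gave no call among tumours or among controls. In limma, tumours at 14 against 11 months had 0 of the 4 past the threshold and 0 with an unadjusted p under 0.05, with 0.00444% of all probe sets called. The log2 fold changes there were -0.53 for Mup10 (95% confidence interval -3.01 to 1.95), -0.21 for 1427631_x_at (-2.37 to 1.94), -0.36 for Mup5 (-1.51 to 0.80) and 0.04 for 1427249_x_at (-0.26 to 0.34). Among controls the same comparison had 0 past the threshold and 1 with an unadjusted p under 0.05, with 0% of all probe sets called. It gave 0.46 for Mup10 (-2.63 to 3.56), 0.24 for 1427631_x_at (-2.46 to 2.94) and 0.18 for Mup5 (-1.27 to 1.62). The fit uses 1 spread per probe set for all groups, so these intervals hold the wider spread of the tumours. For 1427631_x_at the SD at 11 and 14 months was 0.29 and 0.07 in controls, and 2.36 and 1.55 in tumours.

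**Figure D3:**
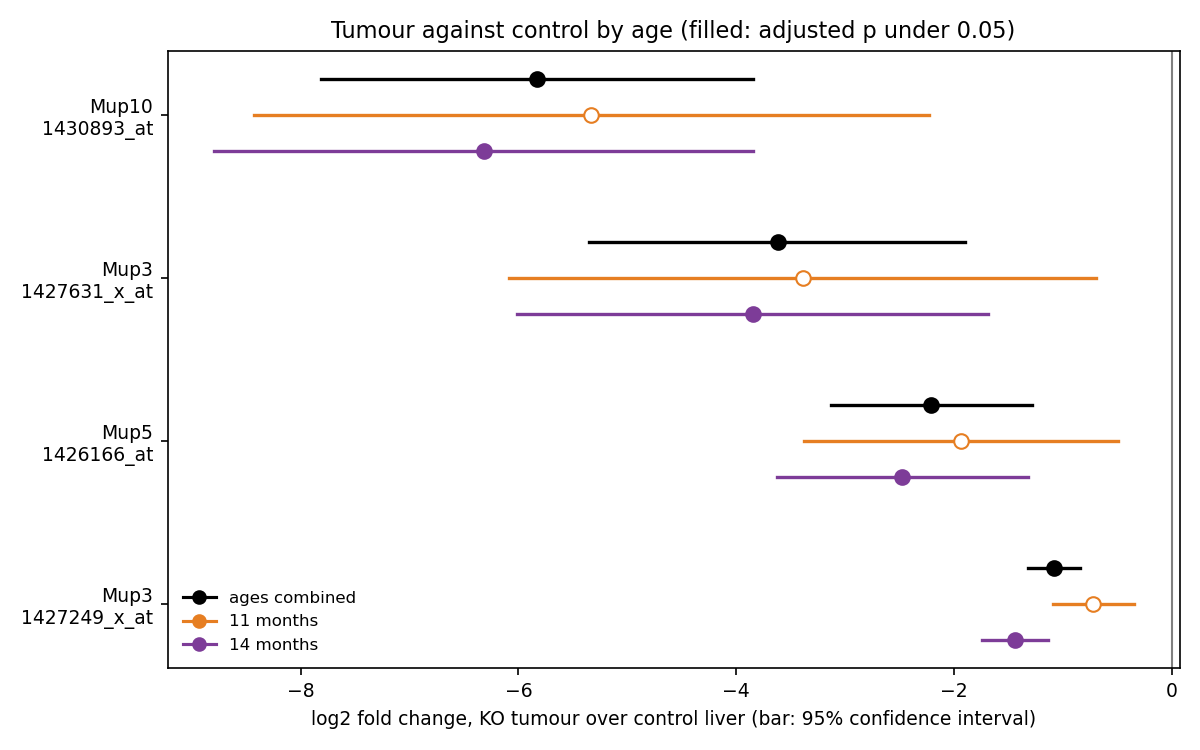
Log2 fold change of KO tumour over control liver for each Mup probe set, with both ages combined, at 11 months and at 14 months; bars are 95% confidence intervals and filled points passed an adjusted p of 0.05. All intervals lie below 0, those at 11 months are the widest, and the intervals of the ages overlap for Mup10, Mup5 and 1427631_x_at.

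The tumours differed from each other more than the controls did for Mup10, Mup5 and 1427631_x_at. Set against the mean of the controls of the same age, KO_tumor_11M replicate 2 was the nearest to its controls for 1427631_x_at (-0.70) and Mup5 (-0.77) on the log2 scale, and was at -3.06 for Mup10. KO_tumor_14M replicate 4 was the nearest for Mup10 (-2.96), with -0.86 for Mup5 and -3.17 for 1427631_x_at. The largest fall was in KO_tumor_14M replicate 1 for Mup10 (-7.60) and for 1427631_x_at (-6.26), and in KO_tumor_14M replicate 2 for Mup5 (-3.37). The dimmer Mup3 probe set did not follow this order, with -0.64 to -0.82 in the 3 tumours at 11 months and -1.35 to -1.59 in the 5 at 14 months.

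**Figure D4:**
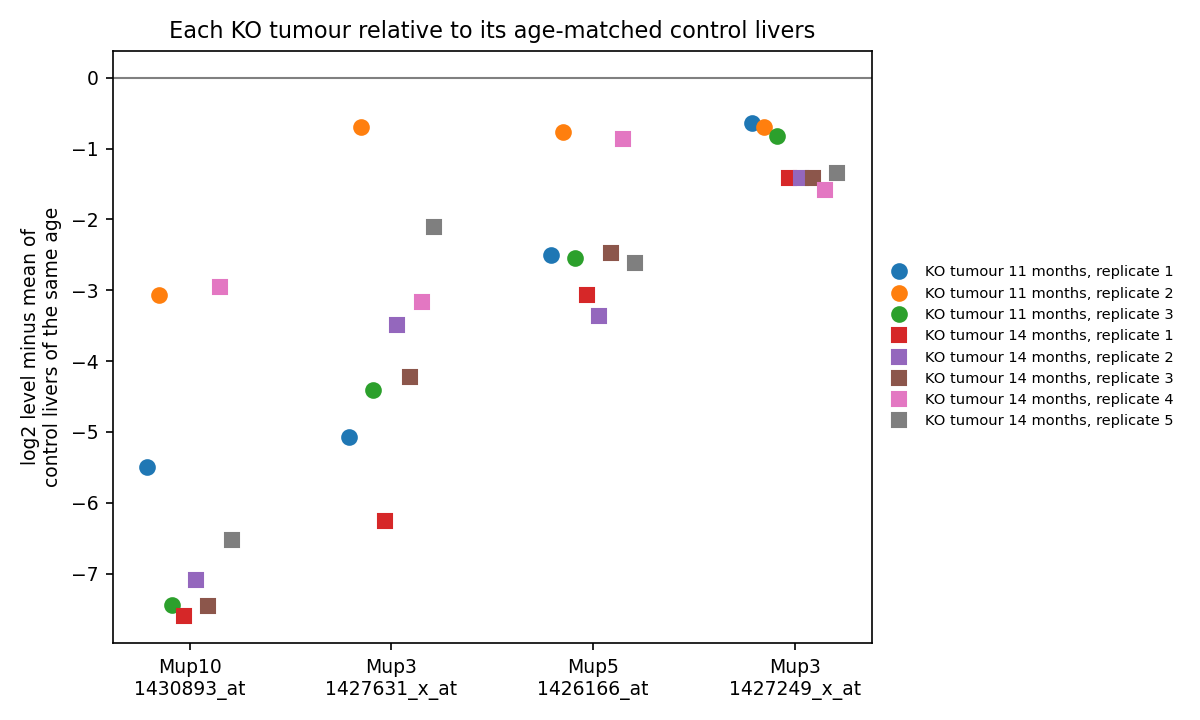
Log2 level of each KO tumour minus the mean of the control livers of the same age, for the 4 Mup probe sets; circles are tumours at 11 months and squares tumours at 14 months. KO tumour 11 months replicate 2 and KO tumour 14 months replicate 4 lie nearest to 0 for Mup10 and Mup5, and the tumours of 1427249_x_at lie close together within each age.

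After the group means were removed, Mup5 and Mup10 moved together over the 13 arrays (Pearson r = 0.88). The brighter Mup3 probe set correlated with Mup5 at 0.61 and with Mup10 at 0.59, and the dimmer one with the others at -0.26, -0.26 and 0.01. These values describe arrays whose probe sets may share transcripts, and the part of that was not tested.

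KO_tumor_11M replicate 2 and KO_tumor_14M replicate 4 also stood apart on all probe sets, together with KO_tumor_11M replicate 1. The last was not near its controls in the Mup probe sets, at -5.49 for Mup10, -5.07 for 1427631_x_at and -2.50 for Mup5. On the first principal component, which held 49.5% of the variance, these 3 tumours lay between -17.8 and 1.5, against 67.7 to 92.1 for the other 5 tumours and -79.3 to -64.5 for the controls. Without these 3 tumours, only KO_tumor_11M replicate 3 was left among tumours at 11 months. The log2 fold changes with the ages combined were then -7.30 for Mup10, -4.22 for 1427631_x_at, -2.72 for Mup5 and -1.11 for 1427249_x_at. A pair of controls, control_liver_11M replicate 1 with control_liver_14M replicate 3, was nearly identical (r = 0.995) and differed over 2-fold at 58 probe sets, against r of 0.982 to 0.990 and 485 to 1310 probe sets for the other 9 pairs. The 58 include 1427249_x_at, at 3.25 in one and 4.29 in the other. Without both, the log2 fold changes were -6.49 for Mup10, -3.74 for 1427631_x_at, -2.29 for Mup5 and -0.98 for 1427249_x_at.

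The genes whose pattern was most like the mean profile of the 4 Mup probe sets were sought over 13 arrays, after the group means were removed. That mean is unscaled, so the probe sets that vary most weigh most in it. The SD among tumours was 1.89 for Mup10 and 1.72 for 1427631_x_at, but 0.93 for Mup5 and 0.09 for 1427249_x_at. The profile therefore reflects mainly Mup10 and 1427631_x_at, and hardly 1427249_x_at. The 10 with the highest Pearson r, 0.944 to 0.969, were Slc22a30, Pecr, Erp44, Akr1c6, D930016D06Rik, Isoc1, Nat8f1, Poglut3, Cyp1a2 and Cfb. Akr1c6 belongs to the aldo-keto reductases that act on steroids, Pecr is a peroxisomal enoyl-CoA reductase, Cyp1a2 is a hepatocyte cytochrome P450, and Cfb is complement factor B. Akr1c6 had a log2 level of 9.76 ± 2.53 in tumours (SD, n = 8) and 13.63 ± 0.05 in controls (n = 5). Slc22a30, a member of the organic anion transporter family, had 8.45 ± 1.05 in tumours and 11.30 ± 0.08 in controls. Cyp1a2 had 8.83 ± 2.80 in tumours and 12.34 ± 0.40 in controls, and its adjusted p of 0.0805 missed the threshold. In all, 5 of the 10 passed in the comparison of tumours with controls and 5 did not, the others being Erp44 (adjusted p = 0.0651), D930016D06Rik (0.053), Poglut3 (0.189) and Cfb (0.104). For comparison, 8.04% of all probe sets were called lower and 7.41% higher. All 10 correlations rest on the same 13 arrays.

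Other lipocalins and other abundant secreted liver proteins were read beside the Mup probe sets, with 8.04% of all probe sets called lower and 7.41% higher. Of 10 other lipocalins measured, 2 rose, 0 fell and 8 missed the threshold, with a median log2 fold change of -0.12. Lcn2, an iron-siderophore carrier induced in inflammation, stood at 13.02 ± 0.49 in tumours (SD, n = 8) and 7.79 ± 1.95 in controls (n = 5), and so rose by 5.31 (adjusted p = 0.000894). Orm2, an acute-phase protein, rose by 2.01 (adjusted p = 0.00996, and 0.0608 without control_liver_11M replicate 2). Of 15 other abundant secreted liver proteins, 0 rose, 1 fell and 14 missed the threshold, with a median of -0.11. The one lower was Apoh, a phospholipid-binding plasma protein (-0.41, adjusted p = 0.00924, and 0.0604 without the nearly identical controls). Without KO_tumor_14M replicate 5 the fibrinogen chain Fgg also passed (adjusted p = 0.0286), which made 2. Without the 3 tumours that stood apart, only KO_tumor_11M replicate 3 was left among tumours at 11 months. More of these lipocalins and secreted proteins were then called lower. The share of all probe sets called in that setting was not recorded. Alb, the main plasma protein of hepatocytes, was at 14.64 ± 0.11 in tumours and 14.65 ± 0.01 in controls (log2 fold change 0.00, 95% confidence interval -0.16 to 0.16), close to the array maxima.

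Most measured genes of a list of 20 with male-biased expression in mouse liver fell, as did the Mup probe sets. The list was chosen with earlier results of these data known. Of 18 measured, 0 rose, 13 fell and 5 missed the threshold, and their median was -2.78 on the log2 scale. Over all probe sets, 8.04% were called lower and 7.41% higher. Hsd3b5, a steroid-metabolising enzyme, was at 3.86 ± 0.95 in tumours (SD, n = 8) and 11.75 ± 0.44 in controls (n = 5), and fell by 7.90 on the log2 scale (adjusted p = 7.88e-06). Slco1a1, an organic anion transporter, fell by 6.48 on the log2 scale (adjusted p = 9.64e-07). Sult2a8, a sulfotransferase, fell by 6.07 (adjusted p = 0.0109, and 0.0513 without control_liver_11M replicate 2). The mean level of the list was 7.05 to 9.43 in tumours and 10.73 to 11.44 in controls, and its highest tumours were again KO_tumor_11M replicate 2 at 9.43 and KO_tumor_14M replicate 4 at 8.50. The count of lower genes was 9 without the nearly identical controls and 11 to 15 with each array left out in turn.

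Of a list of 18 female-biased liver genes, 10 were measured. Of these 10, 1 was higher, 1 lower and 8 not past the threshold, near the 7.41% and 8.04% of all probe sets called higher and lower. Their median was 0.37. The mean level of the list was 5.31 to 7.32 in tumours and 5.21 to 5.44 in controls. All tumours but KO_tumor_11M replicate 3, at 5.31, lay above all controls in that mean. Cyp17a1, a steroid-metabolising cytochrome P450, was the one higher (3.68, adjusted p = 0.00723, and 0.0643 without the nearly identical controls). The one lower was Cux2, a female-biased repressor (-0.33, adjusted p = 0.0463), a call that 14 of 18 alternatives did not keep (adjusted p from 0.0536 to 0.173). Those 14 include leaving out any single array other than control_liver_14M replicate 1, KO_tumor_14M replicate 3 and KO_tumor_14M replicate 4. As a check on the arrays, Xist, expressed from the inactive X chromosome of females, was at 4.46 to 4.91 in tumours and 4.90 to 5.20 in controls, below or near the array medians of 5.127 to 5.218. Eif2s3y, a Y-linked gene, was at 7.81 to 9.06 in tumours and 9.02 to 9.45 in controls.

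Of 17 measured genes of growth hormone signalling, 1 was higher, 4 lower and 12 not past the threshold, with a median of -0.24. The shares over all probe sets were 7.41% higher and 8.04% lower. Igfals, the circulating partner of the insulin-like growth factors and a growth hormone target, was at 8.75 ± 0.26 in tumours (SD, n = 8) and 9.84 ± 0.14 in controls (n = 5). Its log2 fold change was -1.07 (adjusted p = 0.0006), and the call held in all 18 alternatives. Bcl6, a repressor that opposes STAT5 at its targets, fell by 1.50 (adjusted p = 0.00955). Ghr, the growth hormone receptor, fell by 0.96 (adjusted p = 0.0307), and leaving out any 1 control or KO_tumor_14M replicate 2 gave an adjusted p from 0.0507 to 0.108. Ptpn6, a phosphatase found mainly in blood cells, rose by 0.47 (adjusted p = 0.0256). It missed the threshold with quantile normalisation repeated (0.0597), without any 1 control other than control_liver_14M replicate 3 (0.0512 to 0.094) and without KO_tumor_11M replicate 3 (0.0582). The count of 5 changed genes fell to 1 without control_liver_11M replicate 2, to 2 without control_liver_14M replicate 1 or replicate 2, and to 3 without control_liver_11M replicate 1, KO_tumor_11M replicate 3 or KO_tumor_14M replicate 2.

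Of 12 measured receptors and transcription factors known to bear on Mup transcription or on liver identity, 0 rose, 3 fell and 9 missed the threshold, with a median of -0.42. Among all probe sets, 8.04% were called lower and 7.41% higher. The 3 lower were Bcl6 (-1.50), Cebpa (-0.87, adjusted p = 0.0251) and Stat5b (-0.53, adjusted p = 0.0443). Cebpa and Stat5b encode a hepatocyte transcription factor and the transducer of the growth hormone pulse. Without control_liver_11M replicate 2 none of the 3 passed, with an adjusted p of 0.0516 for Bcl6, 0.0703 for Cebpa and 0.197 for Stat5b. Stat5b had a log2 level of 7.81 ± 0.24 in tumours (SD, n = 8) and 8.35 ± 0.34 in controls (n = 5), and 10 of 18 alternatives did not keep its call. Of the arrays left out in turn, only control_liver_11M replicate 1, control_liver_14M replicate 3, KO_tumor_11M replicate 1 and KO_tumor_14M replicate 3 left that call in place. The call of Cebpa was also lost without control_liver_11M replicate 1 (adjusted p = 0.0908) and without control_liver_14M replicate 2 (adjusted p = 0.0579), and the second of these settings left 1 of the 3.

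The other 9 were not past the threshold. Zbtb20, a repressor of Afp in adult liver, stood at -0.86 on the log2 scale of fold changes (adjusted p = 0.0534) and passed without KO_tumor_14M replicate 4 (adjusted p = 0.00997) or KO_tumor_11M replicate 2 (adjusted p = 0.0314). Onecut1, which belongs to the factors that bind ATCAAT, had -0.68 (adjusted p = 0.125), at 6.55 ± 0.64 in tumours (SD, n = 8) and 7.29 ± 0.14 in controls (n = 5). The thyroid hormone receptors Thrb and Thra had -0.65 (adjusted p = 0.0724) and -0.31 (adjusted p = 0.212), and the glucocorticoid receptor Nr3c1 had -0.20 (adjusted p = 0.382). Thrb had an adjusted p of 0.0458 once KO_tumor_11M replicate 1 was left out, and of 0.0258 without KO_tumor_14M replicate 4. Hnf4a, a central hepatocyte factor, was at 11.80 ± 0.21 in tumours and 11.90 ± 0.23 in controls, with a log2 fold change of -0.12 (95% confidence interval -0.40 to 0.17). Foxa2 had -0.08, Cebpb 0.02 and Zhx2, a factor known to repress fetal liver genes after birth, 0.24. Without the 3 tumours that stood apart, only KO_tumor_11M replicate 3 was left among tumours at 11 months. More genes of this list were then called, all of them lower. The share of all probe sets called in that setting was not recorded.

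**Figure D5:**
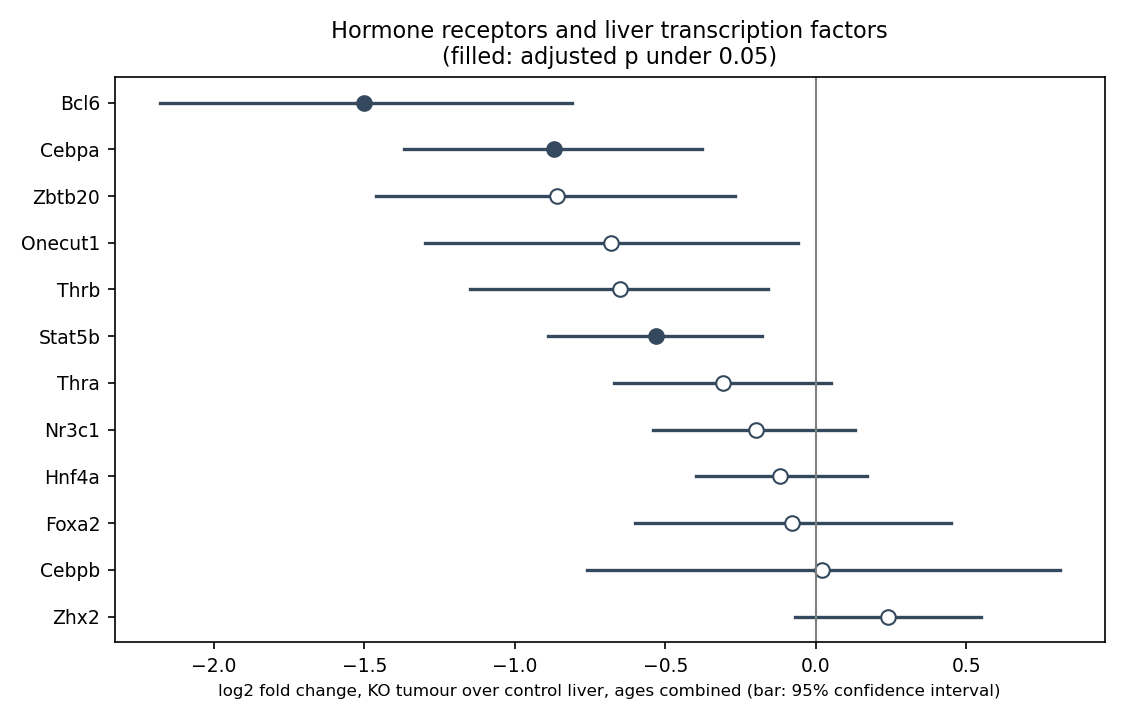
Log2 fold change of KO tumour over control liver with the ages combined for 12 hormone receptors and liver transcription factors; bars are 95% confidence intervals and filled points passed an adjusted p of 0.05. Bcl6, Cebpa and Stat5b are filled and lie below 0, the interval of Hnf4a spans 0, and none of the 12 approaches the -5.83 of Mup10.

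Markers of hepatocytes and of other cells were read on the same arrays, since tumours and livers can differ in their cells. Beside each count of markers stand the 8.04% of all probe sets called lower and the 7.41% called higher. Of 6 hepatocyte markers 1 was lower, the asialoglycoprotein receptor subunit Asgr1 (-1.12, adjusted p = 0.0294, and from 0.054 to 0.0954 without any 1 control). The mean log2 level of the hepatocyte markers was 12.84 to 13.54 in tumours and 13.41 to 13.56 in controls. Of 7 leukocyte markers 3 were higher, Ptprc by 2.04 (adjusted p = 0.00167), Lyz2 by 1.64 (adjusted p = 0.00325) and Itgam by 1.62 (adjusted p = 0.0258, and 0.0863 without control_liver_11M replicate 1). Their list averaged 6.79 to 8.08 in tumours and 6.31 to 6.66 in controls, so all tumours lay above all controls. Itgam also missed the threshold without control_liver_11M replicate 2 (0.0781), control_liver_14M replicate 1 (0.0556) or control_liver_14M replicate 2 (0.0532).

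Of 5 stellate cell and fibroblast markers 3 were higher, Col1a1 by 3.14 (adjusted p = 0.0197), Col3a1 by 2.62 (adjusted p = 0.0198) and Pdgfrb by 1.33 (adjusted p = 0.0167). Without control_liver_11M replicate 2 these missed the threshold, with adjusted p of 0.0853, 0.0912 and 0.077. Col1a1 also missed it without control_liver_11M replicate 1 (0.0504) and Col3a1 without control_liver_14M replicate 2 (0.0502). Their list averaged 7.38 to 9.71 in tumours and 6.36 to 7.56 in controls, and these ranges overlapped. Of 5 biliary and progenitor markers 1 was higher, Prom1 by 4.53 (adjusted p = 0.000859), and of 4 endothelial markers none passed. All these counts stand against the same 7.41% of probe sets called higher and 8.04% called lower. KO_tumor_11M replicate 2, in which 1427631_x_at and Mup5 were nearest to the controls, had the highest mean of the leukocyte markers (8.08). Its mean of the hepatocyte markers, 13.54, was also the highest among tumours. Next in leukocyte mean were KO_tumor_11M replicate 3 (7.90), where Mup10 was lowest (3.78), and KO_tumor_14M replicate 4 (7.81), where Mup10 was highest among tumours (8.72). The part of other cells in the Mup results was not tested.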

How the data were processed

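The authors deposited log2 levels for 45101 probe sets. Per the submitters' processing notes these are RMA values (robust multi-array analysis) from Partek software. Its version and background settings, and whether the arrays were run together, are not given in the sources used. There were 0 missing values, and 64 array controls were left out. Array medians were 5.127 to 5.218, and the number of arrays limits the precision.

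A linear model with 1 mean for each of the groups was fitted to the 13 arrays for all 45037 probe sets (R 4.3.3, limma 3.58.1 with empirical Bayes, 9 residual and 2.483 prior degrees of freedom). Each probe set has 1 estimate of the spread, shared by all groups. Benjamini-Hochberg adjustment ran over the whole table, and calls were made at 0.05. Combined fold changes give both ages equal weight and so differ from differences of the printed means. The fit was tested on simulated data. Probe sets were named from GEO's platform annotation, under which 34945 name 1 gene, 932 several and 9160 none.

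Every Mup probe set is reported. Other genes are represented by their brightest probe set. From each list at most 3 called genes of largest change were named, with the largest opposite call. All receptors and factors, and the 10 genes most like the Mup profile, were named too. Members and lists were chosen with earlier results of these data known. The alternatives were other normalisations (quantile repeated, arrays shifted to 1 median), array weights, a trended robust spread, filters and thresholds, no age term, only the groups compared, KO_tumor_14M replicates 1 and 2 averaged since their titles differ only by a suffix, each array left out, without the nearly identical controls, without the 3 tumours that stood apart, and arrays whose titles carry no number left out or as a block. For the lists, the alternatives were added after the data were seen. Sequences were handled with Python 3.11.15 and Biopython 1.88, tables with pandas 2.3.3 and numpy 2.4.6, and figures with matplotlib 3.10.9.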

Additional observations from a re-analysis of the deposited data

Results flagged for a closer look

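Among 12 sets of array values examined, 2 held an array far from the rest, where chance flags about 1 in 20 sets. Mup10 in KO_tumor_14M replicate 4 was at a log2 level of 8.72, while the other 4 tumours of that age lay at 4.09 to 5.17. The brighter Mup3 probe set, 1427631_x_at, was at 13.54 in control_liver_11M replicate 1, while the other 4 controls lay at 13.92 to 14.06.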

How the results depend on the processing

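No paired analysis was possible because the replicate numbers were given in accession order and pair nothing. With the ages combined, the fold changes stayed negative in every alternative, but the calls did not all hold. Mup10 lay between -7.30 and -5.30, 1427631_x_at between -4.30 and -3.20, Mup5 between -2.72 and -1.99, and 1427249_x_at between -1.17 and -0.98. The count of 4 fell to 3 without the nearly identical controls, with only numbered arrays and without control_liver_11M replicate 2. It was also 3 at an adjusted p under 0.01. In each of these settings 1427631_x_at was the one that missed. 1427249_x_at is not tested with 1 probe set per gene or above the median level. At 11 months 0 passed with all arrays, and 0 to 2 with a tumour or a 14-month control left out. Without the 3 tumours that stood apart, only KO_tumor_11M replicate 3 was left among tumours at 11 months. The log2 fold changes at that age were then -7.44 for Mup10, -4.41 for 1427631_x_at, -2.55 for Mup5 and -0.82 for 1427249_x_at. At 14 months, where 4 passed, 2 passed without the nearly identical controls, 1 with only numbered arrays, 2 at an adjusted p under 0.01, and 2 to 4 with an array left out.

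Signs turned only where nothing passed. With an array left out, the age difference of the fold changes ran from -0.94 to 0.05 for Mup5, -1.29 to 0.89 for 1427631_x_at and -2.05 to 0.14 for Mup10. Tumours at 14 against 11 months ran from -0.76 to 0.22 for Mup5, -0.01 to 0.08 for 1427249_x_at, -1.05 to 1.14 for 1427631_x_at and -1.59 to 0.61 for Mup10, and controls from -0.34 to 1.27 for Mup10. Leaving out the 3 tumours that stood apart left only KO_tumor_11M replicate 3 among tumours at 11 months. The age difference was then 0.39 for 1427631_x_at and 0.28 for Mup10, and tumours at 14 against 11 months gave 0.64 and 0.74. With only numbered arrays, the age difference of 1427631_x_at was 0.20, and tumours at 14 against 11 months gave 0.13 for Mup5, 0.47 for 1427631_x_at and 0.15 for Mup10. With unnumbered arrays as a block these were -0.03 for 1427249_x_at, 0.24 for 1427631_x_at and 0.13 for Mup10. With KO_tumor_14M replicates 1 and 2 averaged, 1427631_x_at gave 0.04.

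Counts of changed genes in the lists moved further. Growth hormone signalling had 5, and 2 without the nearly identical controls, 1 with only numbered arrays, 8 without the 3 tumours and 1 to 5 with an array left out. Receptors and factors had 3, against 1, 0 and 7 in the same settings, 5 with quantile normalisation repeated and 0 to 4 with an array left out. Other lipocalins had 2, with 6 (4 lower) without the 3 tumours and 1 to 3 with an array left out. Secreted proteins had 1, with 0 without the nearly identical controls, 5 (4 lower) without the 3 tumours and 1 to 2 with an array left out. Female-biased genes had 2, with 1 when arrays were shifted to 1 median, 0 without the nearly identical controls, 0 with only numbered arrays and 1 to 2 with an array left out. The cause of these changes was not tested. Leaving out the 3 tumours left 1 tumour at 11 months, and leaving out the nearly identical controls left 1 control at that age. The share of all probe sets called was not recorded where arrays were left out. Levels near the floor (1427249_x_at) and near the array maxima (1427631_x_at) limit how well their folds are measured, and comparisons with 2 controls at 11 months have wide intervals.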

Other observations

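Among the 9160 probe sets to which the annotation used here gives no gene, the 3 with the highest Pearson r to the mean Mup profile were looked at after values had been seen. The first, 1434110_x_at, had an r of 0.980 over 13 arrays after the group means were removed. Its log2 level was 10.34 ± 2.22 in tumours (SD, n = 8, 7.68 to 13.68) and 14.34 ± 0.14 in controls (n = 5, 14.17 to 14.49), with a log2 fold change of -3.94 (adjusted p = 0.0242 in limma). Another, 1426154_s_at, had an r of 0.963. It was at 9.17 ± 3.20 in tumours (4.72 to 13.51) and 14.00 ± 0.17 in controls (13.70 to 14.10), with a log2 fold change of -4.76 (adjusted p = 0.0475). In both of these, all tumours lay below all controls, and the controls were among the brightest signals on the array. The third, 1455083_at, had an r of 0.970. It fell by 1.16 on the log2 scale (adjusted p = 0.0235), and its tumours (9.17 to 11.18) overlapped its controls (11.10 to 11.37).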
